A study of Mus musculus with 2 samples.

Results

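The Mir379 to Mir410 cluster is a run of microRNA (miRNA) hairpin genes in the imprinted Dlk1-Dio3 region of mouse chromosome 12. Its members were taken by position alone, as every miRNA gene of the annotation on the plus strand of mm10 chromosome 12 that starts between 109709060 and 109748000. The rule gave 39 genes of the 2202 miRNA genes in the count tables, from Mir379 to Mir3072, which lies just past Mir410. The data are miRNA sequencing of total RNA from the adrenal gland of C57BL/6J mice, an inbred laboratory strain, with inserts below 30 nt. There was 1 group with 2 replicates and no treatment or other condition. The labels give age and developmental stage as unknown, a free-text label says wild type and male although the Sex field reads not collected, and both replicates carry the same donor record. Separate animals are therefore not established. Every p-value below sets the difference between these 2 libraries against counting error only, and that difference may be technical.

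A miRNA is cut from a hairpin in a longer transcript, and either arm of the hairpin (5p or 3p) can become the mature strand that guides silencing proteins to messenger RNAs. Targets are found mainly through the seed, the bases near the 5′ end of the mature strand. Within the Dlk1-Dio3 region, noncoding RNAs and miRNAs are made from the maternally inherited chromosome, whereas the coding genes Dlk1, Rtl1 and Dio3 are made from the paternal one. The cluster is best known from the embryo, the placenta and neurons, and its hairpins are thought to have arisen largely by tandem duplication. The adrenal gland joins a steroid-making cortex to a medulla of catecholamine-secreting chromaffin cells, which share the neural crest origin of sympathetic neurons. In a bulk tissue such as this, fewer cells of a type and less RNA per cell cannot be told apart.

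The sequences below identify the molecules that the counts stand for. RefSeq (GRCm38.p6) held a mature sequence for 38 of the 39 members, 71 sequences in all, with both arms for 33 members. Gm27379 had no entry. The first set shows the RefSeq arms of the 12 members with the highest mean level, in order of level, because these hairpins hold most of the cluster's counts. Each is written 5′ to 3′ in lower case, with the seed, bases 2 to 8, in capitals.
miR-411-5p: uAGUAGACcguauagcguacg
miR-411-3p: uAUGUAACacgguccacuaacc
miR-379-5p: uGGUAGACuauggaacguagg
miR-379-3p: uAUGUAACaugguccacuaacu
miR-382-5p: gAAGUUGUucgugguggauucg
miR-382-3p: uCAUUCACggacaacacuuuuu
miR-541-5p: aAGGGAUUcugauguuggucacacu
miR-541-3p: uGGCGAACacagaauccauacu
miR-409-5p: aGGUUACCcgagcaacuuugcau
miR-409-3p: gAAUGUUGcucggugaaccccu
miR-369-5p: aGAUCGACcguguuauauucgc
miR-369-3p: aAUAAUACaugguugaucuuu
miR-134-5p: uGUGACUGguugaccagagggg
miR-134-3p: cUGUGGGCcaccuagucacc
miR-376c-5p: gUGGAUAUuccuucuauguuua
miR-487b-5p: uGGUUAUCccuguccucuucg
miR-154-5p: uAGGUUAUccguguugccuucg
miR-154-3p: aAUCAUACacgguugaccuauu
miR-299a-5p: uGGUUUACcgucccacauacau
miR-299a-3p: uAUGUGGGacgguaaaccgcuu
miR-485-3p: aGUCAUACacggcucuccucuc

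The 71 sequences carried 65 distinct seeds, so most members had a seed of their own. Among the arms that RefSeq lists, 6 seeds occurred in 2 members each, and these involved 11 members. Arms that it lacks were not covered, so other shared seeds may be missed. The second set shows the remaining partners of the 6 seeds, because they share a seed with another member, again with the seed in capitals.
miR-1193-5p: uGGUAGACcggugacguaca
miR-758-5p: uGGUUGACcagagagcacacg
miR-1197-5p: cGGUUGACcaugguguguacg
miR-453: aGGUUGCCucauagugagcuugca
miR-496a-5p: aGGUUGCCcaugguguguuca
miR-494-5p: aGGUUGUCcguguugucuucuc
miR-410-5p: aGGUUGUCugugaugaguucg
miR-376b-5p: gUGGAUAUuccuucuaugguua

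The seed AUGUAAC joined miR-379-3p to miR-411-3p, and these sequences were equal at 20 of 22 positions. The seed UGGAUAU joined miR-376c-5p to miR-376b-5p, which were equal at 21 of 22 positions. The other pairs were less alike outside the seed. GGUAGAC joined miR-379-5p to miR-1193-5p (10 of 20 positions equal), GGUUGAC joined miR-1197-5p to miR-758-5p (14 of 21), GGUUGCC joined miR-453 to miR-496a-5p (8 of 21) and GGUUGUC joined miR-494-5p to miR-410-5p (16 of 21). None of these 6 seeds occurred in a RefSeq mature miRNA outside the cluster. Over all members, 60 of the 71 mature sequences had a seed that no RefSeq mature miRNA outside the cluster had.

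A pair of short stretches recurred among the members, and both were chosen after the sequences were seen. GGUU stood at bases 2 to 5 of 9 of the 71 mature sequences (12.7%), 8 of them among the 36 annotated 5p arms. In the other 1667 RefSeq mature miRNAs it stood there in 4 (0.240%). The letters GGUCCAC, searched anywhere in the mature strand, occurred in 5 of the 71 mature sequences (7.04%), each from another member, and in 0 of the other 1667 mature miRNAs. These 5 are shown with that stretch in capitals, because they include the 3p arms of the 2 leading members, Mir411 and Mir379. Among them, miR-379-3p and miR-411-3p also shared a seed and were equal at 20 of 22 positions. The hairpins of Mir411 and Mir758 shared a stretch of 21 nt. Whether the 5 as a set are related beyond these letters was not tested.
miR-379-3p: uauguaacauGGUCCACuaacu
miR-411-3p: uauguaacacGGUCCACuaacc
miR-380-3p: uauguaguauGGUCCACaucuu
miR-758-3p: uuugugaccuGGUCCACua
miR-412-3p: uucaccuGGUCCACuagccg

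Hairpins that share these letters covered nearly the whole range of levels in the cluster. Levels are CPM, the counts of a gene scaled to a fixed total of counts assigned to miRNA genes. A read covers a whole mature molecule, so CPM is not divided by gene length, and how evenly the library preparation captured different miRNAs was not tested. Mir411 and Mir379 led the cluster with 12816 and 9900 CPM on average. Mir380 stood at 56.5 and 92.5 CPM, Mir412 at 5.85 and 5.96 CPM, and Mir758 at 2.05 and 1.13 CPM in replicates 1 and 2. Mir411 and Mir758 share 21 nt and reads that mapped to several places entered no gene, so the levels of both are uncertain. The tables count a hairpin as 1 gene, so the share of the 5p and 3p arms in these levels is not known.

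The cluster as a whole was abundant in the adrenal gland. It took 413754 of the assigned counts in replicate 1, or 4.03% (Wilson 95% interval 4.02% to 4.04%), and 128779 in replicate 2, or 3.65% (3.63% to 3.67%), with a mean of 3.84% ± 0.268 (SD, n = 2). Without molecular identifiers, reads are not independent molecules, so intervals cover counting error only. Replicate 1 held 10263894 assigned counts and replicate 2 held 3525666, which were 49.8% and 33.2% of all reads. Of the members, 32 reached 10 CPM in both replicates, where 12.1% of all 2202 miRNA genes did. The median member stood at 129 CPM and the median of all miRNA genes at 0. Of the 2202 genes, 1087 share at least 20 nt with a gene elsewhere, but only 5 of the members do. Since reads that mapped to several places entered no gene, low counts among all genes need not show absence. The part of this in the 2 comparisons with all genes was not tested. With the other miRNA genes of the Dlk1-Dio3 region beside it, the cluster held 62.7% of the region's counts in replicate 1 and 64.9% in replicate 2.

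The first hairpins of the cluster, Mir379 and Mir411, supplied more counts than all other members together. Mir411 (ENSMUSG00000065477.3, chr12:109710175-109710256) was at 12790 CPM in replicate 1 and 12843 in replicate 2, a mean of 12816 ± 37.6 (SD, n = 2), and was the miRNA gene of rank 17 in both libraries. Mir379 (ENSMUSG00000065498.4, chr12:109709060-109709125) was at 10514 and 9287 CPM, a mean of 9900 ± 867. Their replicate ranges did not overlap, with Mir411 the higher in both libraries by 1.30-fold ± 0.118. Together they held 57.8% and 60.6% of the cluster's counts. Without them the cluster would still have taken 1.70% and 1.44% of all assigned counts.

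A second level lay far downstream, in the part of the cluster that the annotation places within Mirg, a long noncoding RNA gene. Mir382 (ENSMUSG00000065428.4, chr12:109733771-109733846) gave 4906 CPM in replicate 1 and 2592 in replicate 2, a mean of 3749 ± 1636 (SD, n = 2). Mir541 (ENSMUSG00000076052.1, chr12:109742409-109742498) gave 4269 and 2598 CPM, a mean of 3433 ± 1182. Both were lower in replicate 2, and their replicate ranges overlapped, so their order was not resolved: Mir382 was the higher in replicate 1 and Mir541 in replicate 2. Mir409 followed, in an intron of Mirg, at 1258 and 1509 CPM, apart from both neighbours in the order.

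The next 7 members formed a group between 376 and 1131 CPM in which each overlapped the next in replicate range, so neighbours in this order did not differ beyond their spread. Members further apart in it did: the ranges of Mir369 and Mir134 lay wholly above those of Mir154, Mir299a and Mir485. Mir369, a close neighbour of Mir409, was at 688 and 1131 CPM. Mir134 was at 982 and 707 CPM. It is known in neurons for repressing the kinase Limk1 at dendrites. Mir376c was at 614 and 788 CPM and belongs to a family known for A-to-I editing of its precursors in the brain. Mir487b was at 376 and 813 CPM, the widest relative spread among the 12 leading members. Mir154 was at 608 and 569 CPM. Mir299a was at 443 and 657 CPM and Mir485, which overlapped it in range, at 489 and 462 CPM. Mir485 stood apart from the member that followed it, Mir376a, at 343 and 414 CPM.

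These 12 members held 94.1% of the cluster's counts in replicate 1 and 93.0% in replicate 2. By mean level, 1 member exceeded 10000 CPM, 4 lay from 1000 to 10000 CPM, 16 from 100 to 1000 CPM, 11 from 10 to 100 CPM and 2 from 1 to 10 CPM. The group from 100 to 1000 CPM included Mir329 (96.1 and 108 CPM) and Mir381 (209 and 139 CPM), which are known with Mir134 from activity-dependent growth of dendrites. The last member, Mir3072, was at 42.1 and 39.4 CPM. Mir410, which gives the cluster its name, was at 23.6 and 33.8 CPM, among the lower members that passed 10 CPM. Mir544 had 3 and 4 counts and Mir1197 had 1 in each library. Mir654, Gm27379 and Mir453 had no count in either replicate. A count of 0 allows up to 0.292 CPM in replicate 1 and 0.851 CPM in replicate 2 (3 counts), so low levels of these were not detectable at this depth.

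**Figure D1:**
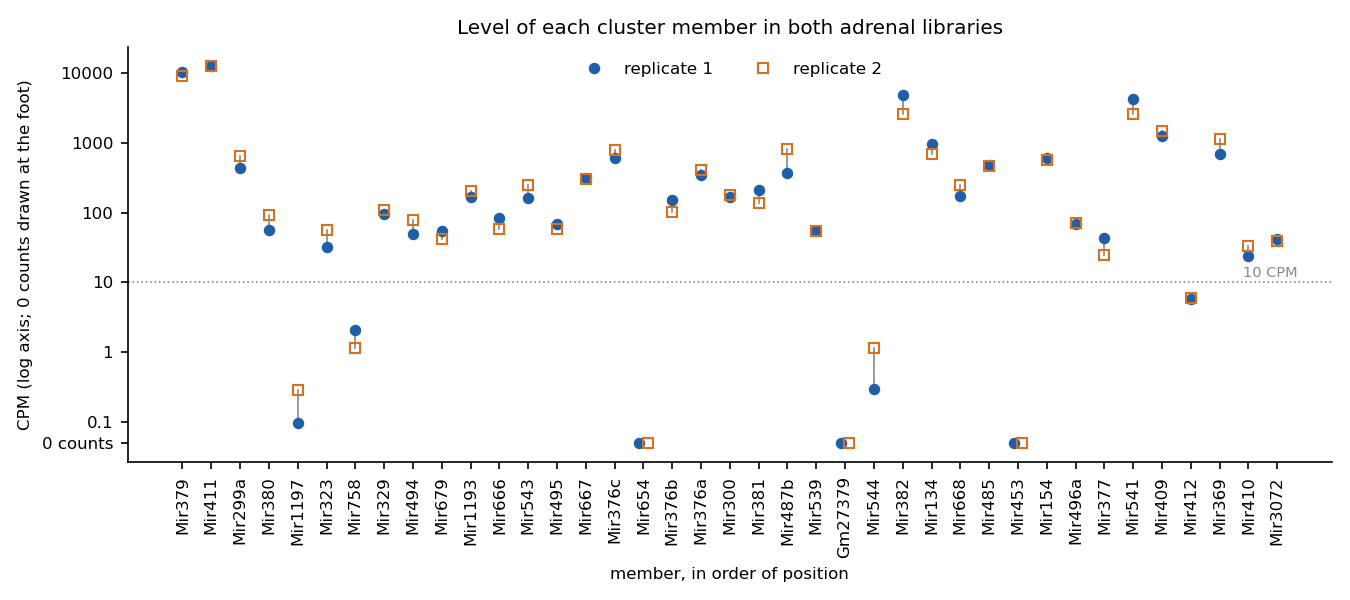
CPM of each of the 39 members on a log axis, in order of position from Mir379 to Mir3072, with filled circles for replicate 1, open squares for replicate 2 and a dotted line at 10 CPM. Mir379 and Mir411 lie near 10000 CPM, 32 members lie above the line in both replicates, and Mir654, Gm27379 and Mir453, with no count, are drawn at the foot.

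Some of these levels rest on hairpins with similar sequence. A stretch of at least 20 nt was shared by Mir411 and Mir758 (21 nt at the longest), by Mir376c and Mir376b (31 nt) and by Mir376b and Mir487b (20 nt), so the levels of these 5 members are uncertain. No hairpin at a locus outside the cluster shared such a stretch with a member. Genes that overlap a member on the opposite strand were left out of this search. In none of these pairs did the partner hairpin hold a whole RefSeq mature sequence of the other, but the table gives only the 5p arm of Mir376c and Mir487b, so their 3p arms were not covered. Reads that mapped to several places, 32.6% of all reads in replicate 1 and 22.7% in replicate 2, entered no gene.

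Position along the cluster did not order the levels. The 39 hairpins spanned 38.9 kb, with a median gap of 556 bp, a shortest gap of 20 bp after Mir679 and a longest of 4368 bp after Mir544. Spearman's rho between start and level was -0.03 and Pearson's r was -0.0043 over the 39 members, which share both libraries and the same total. Neighbours were nonetheless closer in level than members in general: the median difference was 2.20 on the log2(CPM + 1) scale over 38 adjacent pairs and 3.41 over all 741 pairs, given as a description.

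Adjacent hairpins could still differ by more than 100-fold. Mir409, Mir412, Mir369 and Mir410 lie within 638 bp. In that order their mean levels were 1383, 5.90, 909 and 28.7 CPM. Mir409 exceeded Mir412, 52 bp away, by 215-fold in replicate 1 and 253-fold in replicate 2. Mir369, on the other side of Mir412 at a gap of 49 bp, exceeded it by 118-fold and 190-fold. High and low members thus alternated over short distances, and did so in both libraries. At the upstream end, Mir411 exceeded Mir299a, at a gap of 381 bp, by 28.9-fold and 19.5-fold. Mir541 exceeded Mir377, 1831 bp upstream, by 98.7-fold and 106-fold. Among the 29 adjacent pairs in which both members had more than 3 counts in each library, the median difference was 3.82-fold, and 8 pairs were more than 10-fold apart. Pairs with a gap under 500 bp were similar, with a median of 3.93-fold over 13 pairs, 5 of them more than 10-fold apart.

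The annotated transcript Mirg starts within the cluster, so only the downstream members of the cluster lie within it. Whether another annotated transcript covers the upstream members was not examined. The first 25 members lay upstream of Mirg and took 2.68% and 2.65% of assigned counts, of which Mir379 and Mir411 made up 2.33% and 2.21%. The 14 members within its span took 1.36% and 1.0%. By median level the order was the other way, with 343 CPM for the members within Mirg and 102 CPM for those upstream. Of the 14, 5 lay in introns of Mirg (Mir453, Mir154, Mir496a, Mir541 and Mir409). In at least 1 of its 12 transcripts, 4 lay within an exon (Mir134, Mir485, Mir377 and Mir410) and 5 across the edge of an exon. Some of these 5 barely touched the exon: Mir668 and Mir369 start at the last base of one (109734732 and 109743418). Mir382 ends at 109733846, where an exon starts at 109733845. Introns, exons and exon edges each held members above 800 CPM beside members below 35 CPM, as Mir134 and Mir410 do in exons.

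**Figure D2:**
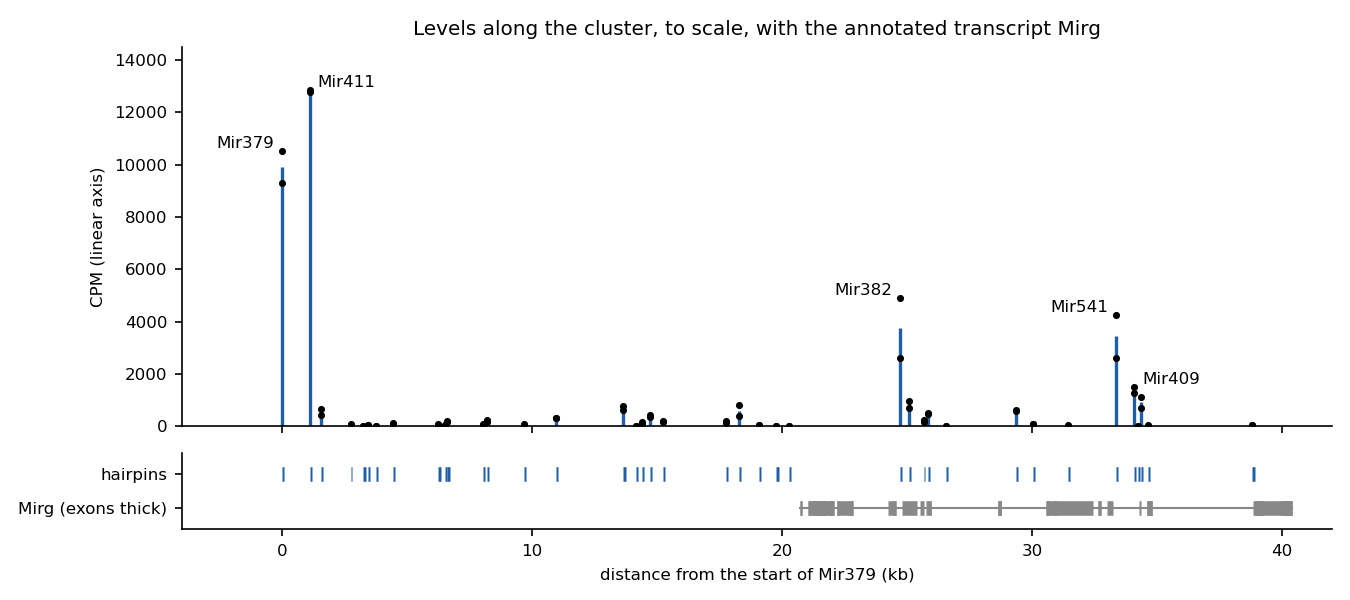
Upper panel, CPM of each member on a linear axis against distance from the start of Mir379 in kb, with bars for the mean and points for the replicates; lower panel, the hairpins and the annotated gene Mirg with its exons thick. The tall bars stand at the upstream end (Mir379, Mir411) and within Mirg (Mir382, Mir541, Mir409), with low bars between them.

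Features of the hairpins showed only weak relations to level. Members were poorer in G and C than miRNA genes at large, with a median of 43.6% against 50.8%, from 29.1% in Mir376c to 72.3% in Mir3072. The median hairpin was 79 nt long, against 89 nt for all. Across the 39 members, Spearman's rho with level was -0.19 for GC content, -0.26 for hairpin length and -0.14 for the predicted folding energy per nt, given as descriptions across members that share their libraries.

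On the opposite strand, 5 annotated miRNA genes overlap members, and the reads lay on the strand of the members. Mir299b, opposite Mir299a, had 3 and 1 counts on its own strand, where Mir299a had 4543 and 2317. The genes opposite Mir380, Mir376a, Mir539 and Mir409 had no count in either replicate.

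The replicates ranked the members almost alike, with Spearman's rho 0.984 and Pearson's r 0.991 on log2(CPM + 1) over 39 members. Individual members nevertheless differed between the libraries beyond counting noise. An exact two-sided binomial test per gene, with Benjamini-Hochberg adjustment over the 443 miRNA genes with at least 10 counts, called 25 of the 34 members tested. Over all genes tested, 52.8% were called, 21.2% higher in replicate 2 and 31.6% higher in replicate 1. The called members divided into 13 that were higher in replicate 2 and 12 that were lower there, and this split became 16 and 9 with DESeq2 size factors. The called members were then not all the same, with 22 called under both scalings. The median log2 ratio of replicate 2 over replicate 1 was 0.0048 for the members and -0.17 for all genes tested. This test compares 2 libraries, not conditions, and calls small differences in abundant genes: 10 of the 34 members were both called and more than 1.5-fold apart, where 23.0% of all genes tested were.

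**Figure D3:**
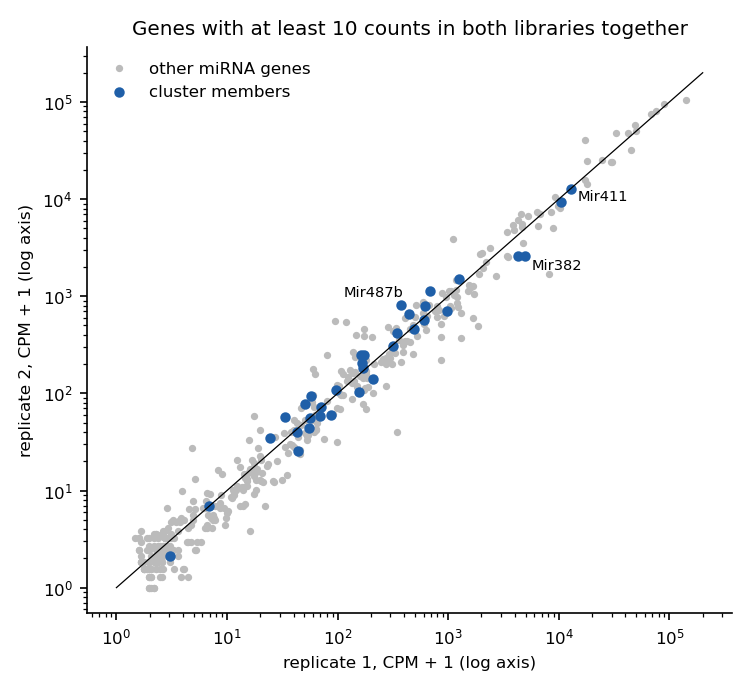
CPM + 1 in replicate 1 against replicate 2, both on log axes, for miRNA genes with at least 10 counts, with cluster members in blue, other miRNA genes in grey and the line of equal levels. Members follow the line as the other genes do, with Mir382 below it and Mir487b above it.

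The larger differences ran in both directions and included abundant members. Mir382 had the lowest ratio, at -0.94 on the log2 scale (exact 95% interval -0.97 to -0.91). Mir541 followed at -0.73 (-0.77 to -0.70) among the abundant members, and together they fell from 22.8% of the cluster's counts in replicate 1 to 14.2% in replicate 2. Mir377, at 43.3 and 24.4 CPM, gave -0.84 (-1.19 to -0.51), and Mir381, at 209 and 139 CPM, gave -0.61 (-0.75 to -0.47). All 4 were called. Mir758 gave -0.73 from 21 and 4 counts and was not called (adjusted p = 0.478, exact binomial test).

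Members higher in replicate 2 were led by Mir487b, the only tested member more than 2-fold apart. Its ratio was 1.10 on the log2 scale (exact 95% interval 1.03 to 1.17). Mir323, at 32.2 and 56.7 CPM, gave 0.80 (0.54 to 1.05). Mir369 gave 0.70 (0.64 to 0.75), and Mir380, with 56.5 and 92.5 CPM, 0.69 (0.49 to 0.89). Mir494, at 49.7 and 77.4 CPM, gave 0.62 (0.41 to 0.84). All 5 were called. Within the Mir376 family, Mir376c gave 0.34 and Mir376a 0.26, both called higher in replicate 2, and Mir376b gave -0.60 and was called higher in replicate 1. Mir376c and Mir376b are among the members whose levels are uncertain.

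The 2 leading members differed little between the libraries. Mir411 gave -0.01 (-0.03 to 0.0040) on the log2 scale and was not called (adjusted p = 0.226, exact binomial test). The sign of this ratio turned under other scalings, to 0.049 with DESeq2 size factors and to 0.067 without regard to strand. Both lie further from 0 than this interval is wide, so the lack of a call depends on the scaling. Mir379 gave -0.20 (-0.21 to -0.18) and was called. Mir485 (-0.10, adjusted p = 0.0311) and Mir154 (-0.11, adjusted p = 0.00493) were called by the exact binomial test, and both calls were lost with DESeq2 size factors and with counts taken without regard to strand, that of Mir485 also without TMM and with all genes of at least 1 count tested. The difference between neighbours in this ratio was no smaller than in general, with a median of 0.64 over 33 adjacent pairs and 0.54 over all 561 pairs of tested members, on the log2 scale.

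**Figure D4:**
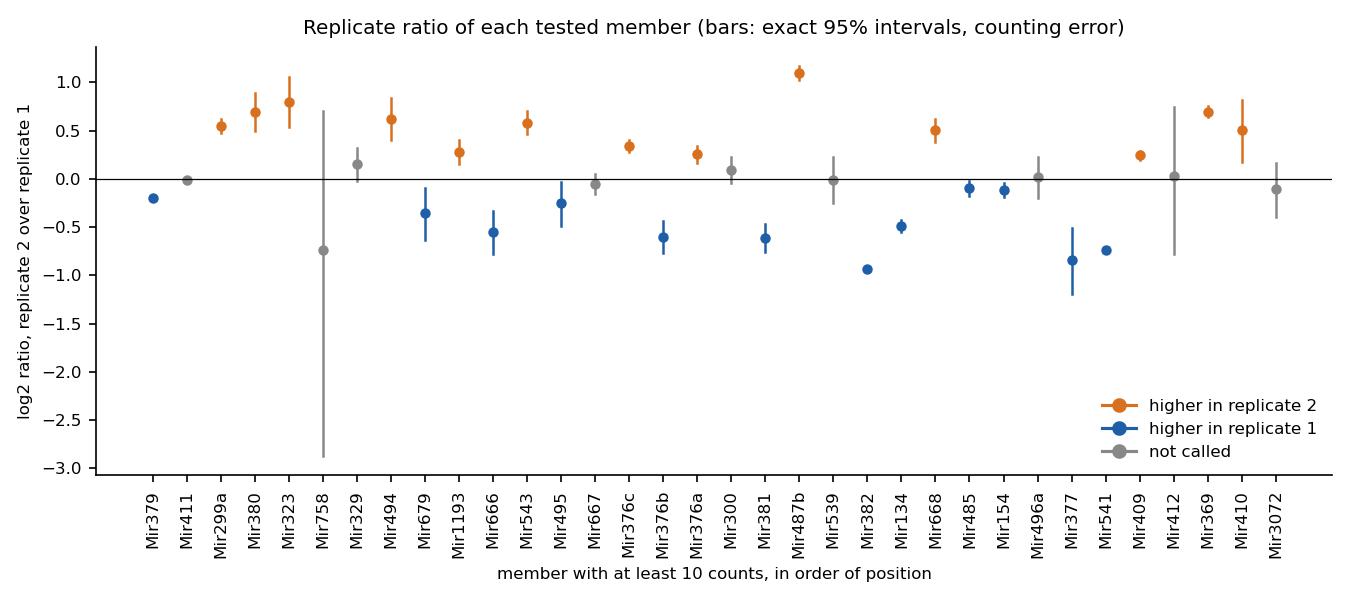
Log2 ratio of replicate 2 over replicate 1 for the 34 members with at least 10 counts, in order of position, with exact 95% intervals for counting error and colours for the call. Members called higher in replicate 2 (13) and in replicate 1 (12) are interspersed along the cluster, from Mir382 at -0.94 to Mir487b at 1.10.

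Other miRNA genes also differed between the libraries. The erythroid list (Mir451a, Mir144, Mir486 and Mir3107) summed to 0.837% of assigned counts in replicate 1 and 0.181% in replicate 2, with 2 of its 4 genes called and none at 0. The neuroendocrine list (Mir375, Mir7-1, Mir7-2 and Mir7b) summed to 7.34% and 8.01%, with 2 genes called higher in replicate 2 and 2 called lower there, where 52.8% of all genes tested were called. The neuron and glia list of 13 genes summed to 0.104% and 0.116%. All 5 of its genes tested were called, 2 higher in replicate 2 and 3 higher in replicate 1. Of the 13 genes, 5 were at 0, as were 1435 of all 2202 miRNA genes. The 5 at 0, the copies of Mir124a with Mir9-1 and Mir9-2, share at least 20 nt with another hairpin. Since multimapping reads entered no gene, their zeros do not show absence. The share of reads left unmapped was 13.8% in replicate 1 and 41.4% in replicate 2. The part of these differences in the members' ratios was not tested.

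The other miRNA genes of the Dlk1-Dio3 region were also present, led by Mir127. The list of miRNA genes antisense to Rtl1 and their neighbours held 13 genes, 9 of them at 10 CPM or more in both replicates, and took 2.28% and 1.83% of assigned counts. Its main member, Mir127, whose transcript lies antisense to Rtl1, was above all 39 members of the cluster at 18069 and 14209 CPM. Of 11 genes of that list tested, 2 were higher in replicate 2 and 5 in replicate 1, where 21.2% and 31.6% of all genes tested were. The other 9 genes of the region took 0.117% and 0.149%. Of 7 tested, 2 were higher in replicate 2 and 4 in replicate 1, against the same shares of all genes. Among these 9 genes the largest differences were at Mir1247 (94.6 and 550 CPM) and Mir370 (79.6 and 246 CPM). In the list antisense to Rtl1, Mir3070b gave -3.04 on the log2 scale, from 35 and 1 counts.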

How the data were processed

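Small RNA from mouse adrenal gland was sequenced in 2 replicates of 1 group. The authors deposited raw counts of reads per miRNA gene, 1 table per library, with build mm10 and annotation GENCODE M21 per the file headers that accompany them. For the aligner and the counting tool, names and versions were not given in the sources used here. Of 3 count columns, the one on the strand of the gene was used. The 4 summary lines (unmapped, multimapping, no feature and ambiguous) entered neither library sizes nor tests, and arms of a hairpin are not separated.

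Symbols, 1-based positions and the Mirg model were read from GENCODE M21, which held all 2202 identifiers. CPM was computed over assigned counts. Replicates were compared by an exact two-sided binomial test (scipy 1.17.1, Python 3.11.15) on library sizes scaled by TMM in edgeR 4.0.16, for genes with at least 10 counts, with Benjamini-Hochberg adjustment at 0.05. The test was run on counts simulated with counting error alone and known changes. Such a simulation cannot show how the test behaves where real libraries vary beyond counting error. Log2 ratios had 0.5 counts added. No test needing replicated groups could be fitted with 1 group. DESeq2 1.42.0 size factors were an alternative. Shared stretches of 20 nt were searched on both strands among hairpins that do not overlap, and folding energies came from RNAfold 2.7.2. Mature sequences came from RefSeq.

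The members and lists were chosen with earlier results of these data known. Any member could be named; values per replicate were given for the 12 highest members, the first and last, and the 5 largest ratios each way, and sequences for the 12 highest members and for shared seeds. Mir410, Mir329, Mir376a, Mir376b, Mir412, Mir544 and Mir1197 were added after their values were seen. Names of the list antisense to Rtl1 that matched no gene were Mir3070-1 and Mir3070-2. The lists for endothelium (Mir126a, 8.99% and 9.56% of counts), smooth muscle (Mir143 and Mir145a, 2.56% and 2.66%), liver (Mir122, 104 and 97.6 CPM) and skeletal muscle (6 genes; 23 and 9 counts) were checked in the same way. The 4 skeletal muscle genes at 0, copies of Mir1a and Mir133a, share at least 20 nt with another hairpin, so their zeros do not show absence.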

Additional observations from a re-analysis of the deposited data

How the results depend on the processing

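Most values kept their direction and their side of the threshold under the alternatives. The share of the cluster, 3.84%, became 2.42% without the members that share 20 nt (Mir411 among them), 1.61% of all reads, and 4.39% when the most abundant miRNA gene was left out of the total, and it ran from 3.65% to 4.03% with 1 replicate left out. The number of members at the level threshold, 32, fell to 20 at 100 CPM, and stayed at 32 with either replicate left out. The share of the 3 leading members, 68.8%, became 73.5% with counts taken without regard to strand, where members opposite another miRNA gene lose their reads, and ran from 67.7% to 70.0% with 1 replicate left out. Spearman's rho of level with position, -0.03, became 0 without regard to strand and ran from -0.044 to -0.0010 with 1 replicate left out. The 25 members called between replicates became 10 when a difference of at least 1.5-fold was also asked for, and ran from 20 to 25 under the other scalings, filters and columns. The called members were not always the same: 22 of 25 with DESeq2 size factors and 17 of 20 without regard to strand were also called in the main test. The log2 ratio of Mir411, -0.01, turned to 0.0060 without TMM, to 0.049 with DESeq2 size factors and to 0.067 without regard to strand. Of the 110 ratios recomputed for named members, 101 kept their call and direction, and the 6 calls lost were those of Mir485 and Mir154. No paired analysis was possible because there is only 1 group. The uneven depth, 10263894 against 3525666 assigned counts, leaves the lowest members less precise in replicate 2.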
